A study of Mus musculus with 24 samples.

Results

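Metatarsals exposed to 50 MPa of hydrostatic pressure were compared with metatarsals exposed to 5 MPa, in 7 of the 24 libraries of the series. Members were chosen by their labels, library type and sequencing run: 3 libraries at 50 MPa and 4 at 5 MPa, all stranded and all of the second sequencing run. The fourth 50 MPa library is unstranded and of the first run, and it served as a check only. Each sample was a pool of 6 metatarsal bones from E15 embryos of C57/BL6J mice, of unknown sex. The bones were cultured for 24 hours, held in a syringe in a water-filled vessel for 1 hour at 0 (control), 5 or 50 MPa, cultured for 24 hours more and frozen. The study names 5 MPa physiological and 50 MPa injurious, and the comparison asks whether raising the pressure from one to the other leaves a trace in the transcriptome a day later. Whether the pools came from separate litters is not given in the sources used here, so p-values measure the spread between these pools. The labels give the unit as mPa, and MPa was taken from the study's methods. A pool mixes cartilage, perichondrium, early bone, vessels and attached soft tissue, so fewer cells of a type and less RNA per cell cannot be told apart.

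The embryonic metatarsal is a cartilage rudiment in which chondrocytes proliferate, enlarge to hypertrophic cells and are replaced by bone. Its cells secrete a matrix of type II collagen and aggrecan, and the loop of Indian hedgehog and parathyroid hormone-related protein sets the pace at which they mature. Chondrocytes sense load through ion channels, integrins, the actin cytoskeleton and the YAP and TAZ cofactors, and harmful pressure or heat is known to call up immediate early, heat shock and unfolded protein genes.

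Total counts ranged from 12404776 to 18144087 at 5 MPa and from 11037787 to 14548505 at 50 MPa, a difference within the spread of the libraries (exact permutation test, two-sided p = 0.286). With 3 against 4 libraries such a test cannot go below 0.0571. A single gene without a symbol took 9.39% to 16.6% of the counts at 5 MPa and 8.62% to 16.2% at 50 MPa. Mitochondrially encoded genes took 4.08% ± 0.53 (SD, n = 4) and 3.98% ± 0.55 (SD, n = 3), with an exact two-sided p of 0.8. In Euclidean distance over log2 CPM (counts scaled to a common library size), a 50 MPa and a 5 MPa library lay a median of 68.4 apart. Libraries within the 5 MPa group lay 72.2 apart and those within the 50 MPa group 63.7. The median distance between the pressures thus lay between those within the groups. The unstranded 50 MPa library lay a median of 99.9 from the other 50 MPa libraries.

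No gene differed between 50 and 5 MPa at an adjusted p of at most 0.05. Of 19217 genes tested by edgeR's quasi-likelihood method, 0 passed (0%), whereas DESeq2 and limma-voom each called 1 gene, Thbs4 and Zfp987 respectively. At an unadjusted p under 0.05 there were 551 genes (2.87%), against 961 if p-values were evenly spread, with 256 higher (1.33%) and 295 lower (1.54%) at 50 MPa. Log2 fold changes centred on -0.01 with an SD of 0.31, and with an SD of 0.22 among the 9926 genes of 10 CPM or more. The data bounded most genes closely. Among those 9926, the 95% interval of the fold change lay within 2-fold for 9665 (97.4%) and within 1.5-fold for 9303 (93.7%). Over all genes tested the interval lay within 2-fold for 15903 (82.8%), and for the rest the interval admitted a difference of 2-fold or more. The libraries of the 2 groups did not overlap for 867 genes (4.51%), of which 457 were higher at 50 MPa (2.38%) and 410 lower (2.13%).

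**Figure D1:**
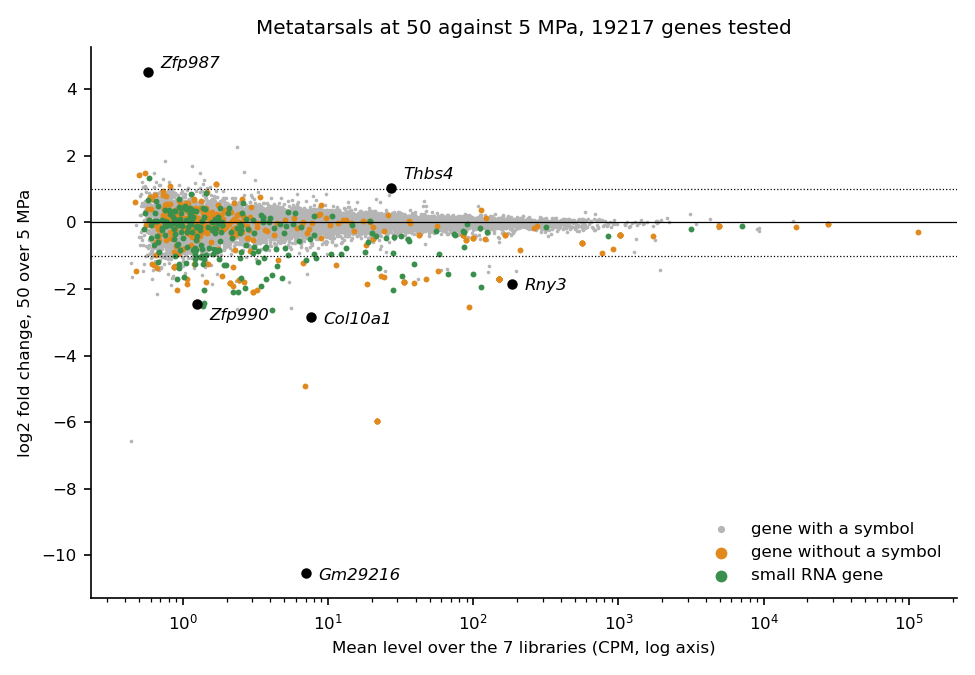
Each point is 1 of the 19217 genes tested, with its mean level over the 7 libraries in CPM on a log axis and its log2 fold change of 50 over 5 MPa on the vertical axis (dotted lines mark 2-fold). The cloud narrows around 0 as the level increases. Of the 66 genes of 10 CPM or more beyond 2-fold, 65 lie below 0, of which 48 have no symbol.

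Thbs4, which encodes thrombospondin 4, a matrix protein of tendon and muscle attachment, was the gene nearest to the threshold at an appreciable level. Its levels were 18.0, 19.8, 17.6 and 18.5 CPM at 5 MPa and 39.0, 28.0 and 47.5 CPM at 50 MPa. Every 50 MPa library lay above every 5 MPa library. The log2 fold change was 1.04 (SE 0.15, 95% interval 0.73 to 1.36), with an unadjusted p of 8.21e-06 and an adjusted p of 0.0789 by edgeR. It passed the threshold with DESeq2 (adjusted p = 8.43e-06), with no filter on low counts (3.34e-17), with library sizes alone (8.4e-08) and without 50 MPa replicate 2 (0.000746). It passed in none of the other alternatives. Among these were limma-voom (0.99), RLE size factors (0.0879), at least 10 counts in every library (0.173) and no robust option (0.393). With the unstranded library added the adjusted p was 0.254, and with the replicate number as a block 0.323. With any other library left out it was 0.133 or more, and with the control libraries in the fit it was 1. Over all alternatives the log2 fold change ranged from 0.86 to 1.23. The unstranded 50 MPa library held 54.5 CPM. The 4 controls, which received no pressure, held 18.8, 29.8, 23.0 and 7.54 CPM, so they spread beyond the 5 MPa range on both sides and reached into the 50 MPa range. The SD was 0.94 CPM at 5 MPa (n = 4) and 9.77 CPM at 50 MPa (n = 3). Of 15 tested members of the tendon and perichondrium list, Thbs4 alone had an unadjusted p under 0.05, the list's median log2 fold change was 0.03, and the tendon genes Scx and Mkx, both transcription factors, stood at -0.11 and 0.11. Tnmd, encoding tenomodulin of mature tendon, stood at 0.46 with an interval of -0.93 to 1.84.

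Zfp987 had the same adjusted p, 0.0789, at a level near the limit of detection. It belongs to a cluster of zinc finger genes whose copies share long stretches of sequence. Its estimated counts were 2, 1, 0 and 0 at 5 MPa and 12, 18 and 23 at 50 MPa. The log2 fold change was 4.51 (SE 0.67). Zfp990, a relative in the same cluster, had the lowest unadjusted p among the named genes with a lower value at 50 MPa, 0.000192. Its counts were 46, 32, 9 and 38 at 5 MPa and 2, 8 and 5 at 50 MPa, a log2 fold change of -2.44 (SE 0.50). The genes thus stood in opposite order in the same libraries. In the 4 controls Zfp987 had 2, 14, 11 and 1 counts and Zfp990 12, 5, 5 and 7. The first control had only 4185557 total counts. Scaled for library size, it held 3.05 CPM of Zfp990, above the 0.687 to 2.70 CPM at 5 MPa, while the other controls held 0.349 to 0.704 CPM. In the unstranded 50 MPa library Zfp987 had 0 counts, below all the other 50 MPa libraries.

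Reads of these genes are hard to assign. Of the 31-base words in the Zfp987 transcripts, 93.1% also occur in transcripts of other genes, Zfp990 among them, and 49.4% of the words of Zfp990 occur elsewhere. Between the pair itself the overlap was smaller, with 784 of the 2525 words of Zfp987 in Zfp990, which are 23.9% of the words of Zfp990, while 78.7% of the words of Zfp987 occur in the predicted gene Gm8935. Thbs4 shared 0% of its words. The stretch around the longest identical coding run of the pair, 122 bases, is shown because reads from it can hardly be told apart, and it was chosen for its likeness out of coding sequences of 1899 bases in Zfp987 and 1815 in Zfp990. It holds coding bases 109 to 320 of each gene in the GENCODE M21 transcripts (GRCm38), 5′ to 3′, with capitals at the 3 bases of 212 that differ.
Zfp987: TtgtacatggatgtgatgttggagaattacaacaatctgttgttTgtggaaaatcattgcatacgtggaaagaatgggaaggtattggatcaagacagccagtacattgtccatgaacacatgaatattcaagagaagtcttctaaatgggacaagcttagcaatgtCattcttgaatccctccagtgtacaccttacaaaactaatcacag
Zfp990: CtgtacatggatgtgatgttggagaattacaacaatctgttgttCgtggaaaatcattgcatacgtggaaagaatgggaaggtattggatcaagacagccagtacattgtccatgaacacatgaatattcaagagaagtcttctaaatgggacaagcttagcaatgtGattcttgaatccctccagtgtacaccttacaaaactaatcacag
Besides Zfp990, 11 genes share 10% or more of the words of Zfp987. Of these Zfp534 had 1, 0, 1 and 0 counts at 5 MPa and 3, 2 and 2 at 50 MPa, and Zfp989 had 21, 10, 4 and 15 against 4, 10 and 14. Gm8935 and Zfp988 had 0 counts in every 5 MPa and 50 MPa library. How far the estimation of counts from shared reads sets the values of Zfp987 or Zfp990 was not tested.

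**Figure D2:**
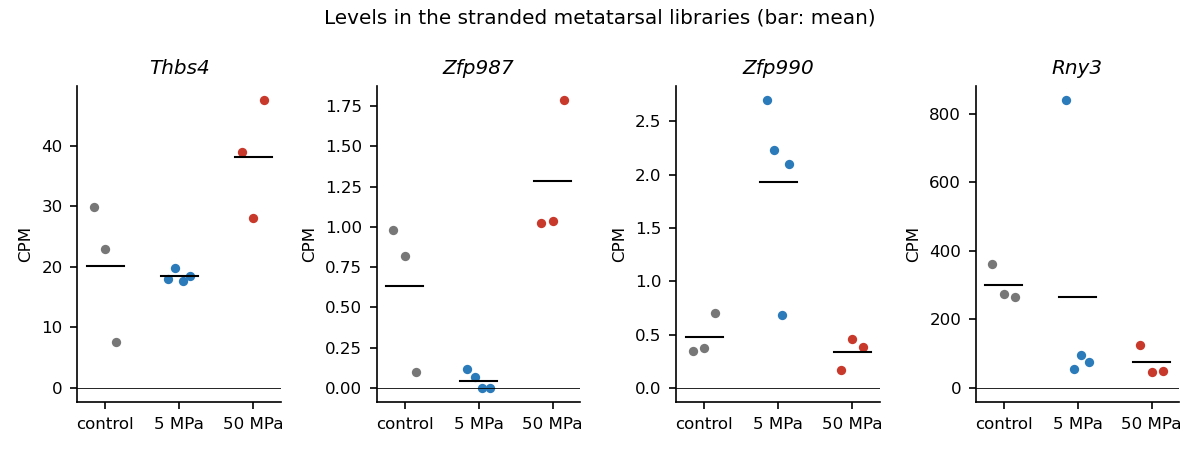
Levels of 4 genes in CPM in the stranded libraries of the second run, 3 controls, 4 at 5 MPa and 3 at 50 MPa, with a bar at each mean. Thbs4 at 50 MPa lies at 28.0 to 47.5 CPM above all 5 MPa libraries, Zfp987 and Zfp990 stand in opposite order, and 1 library at 5 MPa holds 838 CPM of the small RNA Rny3.

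The other genes named for a higher value at 50 MPa all had an adjusted p of about 1 by edgeR, and are given as values only. Tle2, a transcriptional co-repressor of the Groucho family, had 43.1 to 51.1 CPM at 5 MPa and 54.7 to 60.2 CPM at 50 MPa, a log2 fold change of 0.31 (SE 0.08). Its 3 stranded controls of the second run lay at 54.4 to 64.0 CPM, close to the 50 MPa range. Ptprn, a protein of secretory vesicles, stood at 0.92, with 2.16 to 2.67 CPM at 5 MPa and 3.23 to 5.38 CPM at 50 MPa. Genes with a role in skeletal tissue were among them. Cytl1, a cytokine-like protein secreted by chondrocytes, stood at 0.73 (SE 0.21), with 2.72 to 4.81 CPM at 5 MPa and 5.74 to 6.80 CPM at 50 MPa. Rspo2, a secreted enhancer of Wnt signalling in limb growth, stood at 0.41 (SE 0.12), with 12.1 to 15.4 CPM and 16.5 to 19.5 CPM. Hoxa9, a limb and axial patterning factor, stood at 0.27 (SE 0.08), with 32.6 to 37.7 CPM and 40.7 to 43.1 CPM. The unstranded 50 MPa library lay above the 5 MPa range for 8 of the 10 genes named as higher, Thbs4 and Cytl1 (12.2 CPM) among them, but within it for Rspo2 (14.0 CPM) and below it for Hoxa9 (29.4 CPM). That library lay a median of 102 from the 5 MPa libraries in Euclidean distance. The share of all genes for which it lies outside the 5 MPa range was not counted, so this is not read as replication. The kinase genes Pkn3, Cdk10 and Ulk4 stood at 0.66, 0.37 and 0.45, and the noncoding transcript AI506816 at 0.30. Controls of the second run reached the 50 MPa range for Ptprn, Cytl1, Ulk4 and AI506816, with 2.31 to 4.89 CPM of Ptprn. They stayed below that range for Pkn3, Cdk10, Rspo2 (10.6 to 12.8 CPM) and Hoxa9 (31.4 to 38.5 CPM).

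Those named for a lower value at 50 MPa also had an adjusted p of about 1. Pmaip1, which encodes the pro-apoptotic protein Noxa, a p53 target, had 4.40, 5.22, 4.20 and 5.48 CPM at 5 MPa and 2.56, 3.05 and 2.56 CPM at 50 MPa, a log2 fold change of -0.82 (SE 0.21). Its controls ran from 3.32 to 9.22 CPM, and so covered the 5 MPa values, and the unstranded 50 MPa library held 4.51 CPM, within the 5 MPa range. Bmp3, a BMP family member that restrains bone formation, stood at -0.39 (SE 0.11), with 23.6 to 28.0 CPM at 5 MPa and 17.0 to 21.0 CPM at 50 MPa. Tfrc, the transferrin receptor, stood at -0.36, with 59.8 to 76.1 CPM against 45.2 to 59.4 CPM. Slco2a1, a prostaglandin transporter, stood at -0.47 (SE 0.13), and Ednrb, an endothelin receptor, at -0.62. Bhlhe41, a repressor within the circadian clock, stood at -0.29 (SE 0.09), with 33.6 to 39.8 CPM against 29.3 to 31.8 CPM. Smtnl2, a smoothelin-like protein of muscle, stood at -0.63, the dipeptidase Dpep2 at -1.67 at about 1 CPM, and Ttyh2, a chloride channel family member, at -0.34. The 3 controls of the second run overlapped the 5 MPa range for Smtnl2 (12.5 to 17.3 CPM), Slco2a1 (10.5 to 15.2 CPM), Ednrb (5.13 to 6.35 CPM) and Bhlhe41 (33.5 to 46.8 CPM), and both ranges for Bmp3 (20.8 to 27.5 CPM) and Tfrc (48.8 to 60.1 CPM). For Ttyh2 (17.1 to 30.5 CPM) and Dpep2 (0.604 to 1.12 CPM) these controls also overlapped both ranges. The unstranded 50 MPa library lay below the 5 MPa range for 8 of the 10 genes named as lower and within it for Pmaip1 and Ttyh2. Here too the share of all genes outside that range was not counted, so this is not read as replication.

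**Figure D3:**
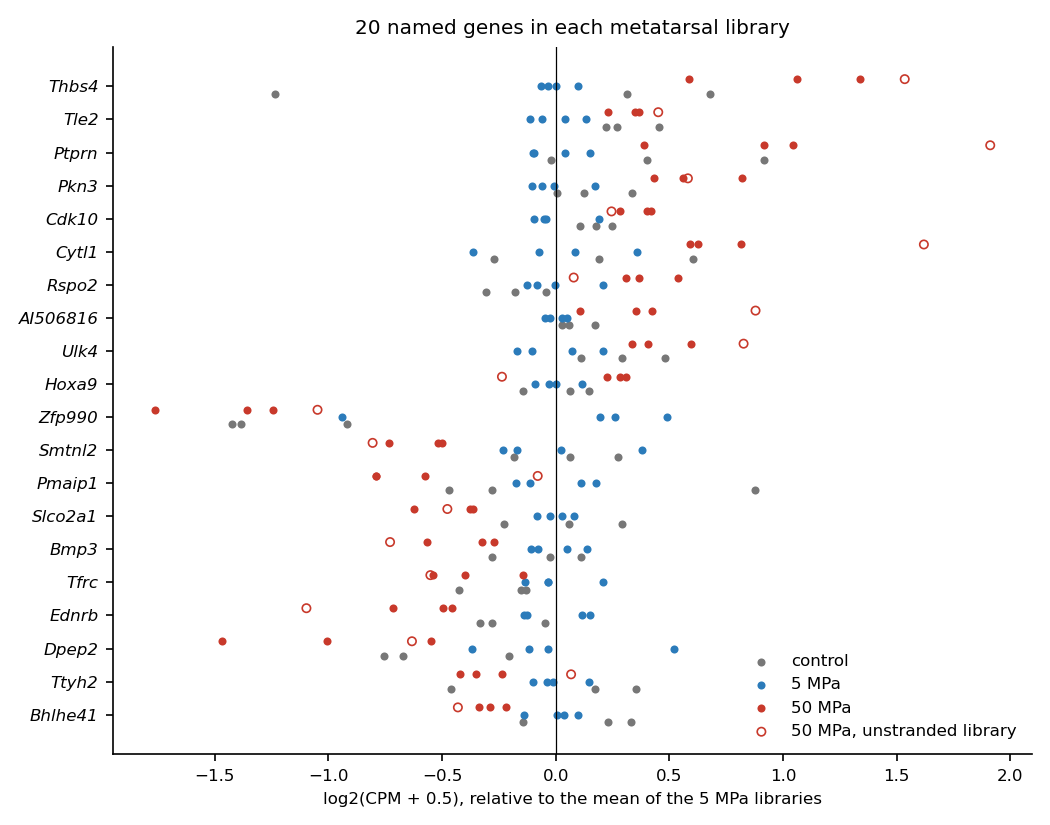
Levels of the 20 named genes in each metatarsal library on the log2(CPM + 0.5) scale, set to 0 at the mean of the 5 MPa libraries. The red 50 MPa points do not overlap the blue 5 MPa points, which the choice of these genes required, while the grey controls of the second run and the open point of the unstranded 50 MPa library lie on either side.

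Across 37 gene lists with 888 distinct tested members, 0 members passed the threshold. At an unadjusted p under 0.05 there were 6 higher and 26 lower members, 3.60% against 2.87% of all genes, and 794 of the 888 had a 95% interval within 2-fold. The medians of 24 lists lay within 0.1 of 0, and 17 of these changed sign when some library was left out.

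No gene of acute stress or injury passed the threshold. The 28 heat shock genes, chaperones and their regulators, had a median of -0.03 on the log2 fold change scale, and 0 of them were under p 0.05. Its inducible members Hspa1a and Hspa1b stood at 0.23 (95% interval -0.17 to 0.63) and 0.31 (-0.20 to 0.83), with 5.10 to 8.01 CPM of Hspa1a at 5 MPa and 6.21 to 8.11 CPM at 50 MPa. One control held 89.0 CPM of Hspa1a, more than any pressurized library. Among 34 immediate early genes the median was -0.12 and 27 stood below 0, but the median was -0.04 without 5 MPa replicate 2 and -0.18 without 50 MPa replicate 1. Fos, a subunit of the AP-1 factor, stood at -0.07 (-0.46 to 0.33) and Egr1, a zinc finger factor induced by load, at -0.10 (-0.36 to 0.16). Maff alone had an unadjusted p under 0.05, at -0.54. The p53 and cell death list had a median of -0.02, with Pmaip1 the only member under p 0.05. The antioxidant and metallothionein list had a median of -0.07, and its member Hmox1, the inducible heme oxygenase, stood at -0.31 with 78.5 to 104 CPM at 5 MPa and 60.4 to 78.2 CPM at 50 MPa. Among 29 injury cytokines and inflammatory genes the median was -0.01, with 0 members under p 0.05. There Ptgs2, the inducible cyclooxygenase, stood at 0.17 (-0.39 to 0.72) and Il1b at -0.35 (-1.24 to 0.54), an interval that admits a 2-fold difference. The interferon and antigen presentation list had a median of 0.04, with 0 of 27 under p 0.05.

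The unfolded protein list leaned one way. Of 31 members 28 stood below 0, with a median of -0.15 and 2 under p 0.05. Trib3, a pseudokinase induced by the stress factor Ddit3, had 22.6, 27.4, 17.9 and 17.5 CPM at 5 MPa and 17.3, 12.7 and 16.1 CPM at 50 MPa, a log2 fold change of -0.48. Herpud1, of the degradation machinery, stood at -0.24. Without 5 MPa replicate 2, which was highest for Trib3 and Herpud1, the list's median was -0.03.

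The lists of genes by which cells sense and transmit force had medians close to 0, while single members spread more widely. The list of mechanosensitive and calcium channels had a median of 0.00 with 0 of 31 members under p 0.05. Its members ran from -0.32 for Ryr3 to 0.39 for P2rx7, with 13 above 0 and 18 below. P2rx7 (-0.04 to 0.82) and Trpm5, at 0.23 (-0.001 to 0.46), had intervals that lay mostly above 0 but included it. Piezo1, a stretch-activated cation channel, had 139, 157, 141 and 120 CPM at 5 MPa and 154, 142 and 130 CPM at 50 MPa, and its interval of -0.19 to 0.24 lay within 1.5-fold. Trpv4, a calcium channel of chondrocytes, stood at 0.00 with a wider interval of -0.48 to 0.48. The YAP, TAZ and Hippo list had a median of -0.06, and its target Ccn2, connective tissue growth factor, stood at -0.22 (-0.99 to 0.54). Actin cytoskeleton genes had a median of -0.05, and integrins, laminins and type VI collagen -0.02, with 0 of 25 and 0 of 27 members under p 0.05.

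Genes that define cartilage were present in all 7 libraries, and 0 of them passed the adjusted threshold of edgeR. Col2a1, the main collagen of cartilage, had 1113, 2022, 1235 and 1910 CPM at 5 MPa and 1967, 1353 and 1455 CPM at 50 MPa, overlapping ranges with a log2 fold change of 0.02 (95% interval -0.65 to 0.68). Acan, aggrecan, stood at 0.04 (-0.50 to 0.59) and Sox9, the master factor of chondrocytes, at -0.02 (-0.42 to 0.37). Of 30 cartilage matrix genes 15 stood above 0 and 15 below. Only Vcan and Prg4 had an unadjusted p under 0.05. Vcan, the large proteoglycan of immature mesenchyme, had 659, 597, 617 and 669 CPM at 5 MPa and 741, 828 and 721 CPM at 50 MPa, without overlap, at 0.26 (0.08 to 0.45). Prg4, lubricin of the joint surface, stood at 0.70 (0.10 to 1.30), with 11.4 to 23.5 CPM at 5 MPa and 23.4 to 30.2 CPM at 50 MPa, and 1 control held 262 CPM. Prg4 passed the threshold of edgeR with no filter on low counts (adjusted p = 0.0072) and with library sizes alone (0.00727). Chondrogenic and joint transcription factors had a median of 0.06 with 0 of 23 under p 0.05.

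Among growth plate hypertrophy and Ihh signalling genes, Col10a1 and Ihh were low in most libraries and uneven. Col10a1, the collagen of hypertrophic cartilage, had 40.0, 0.696, 3.13 and 4.60 CPM at 5 MPa and 1.37, 1.73 and 1.94 CPM at 50 MPa. One 5 MPa library thus stood far above the other 6, and the log2 fold change of -2.85 had an unadjusted p of 0.13. The unstranded 50 MPa library held 29.9 CPM and the 4 controls 0.254, 1.26, 19.8 and 5.83 CPM. Ihh, Indian hedgehog, was likewise highest in that library, with 3.28 CPM against 0.992 to 1.53 in the other 5 MPa libraries and 0.922 to 1.02 at 50 MPa. Mmp13, a collagenase of hypertrophic cells, stood at -0.67 (-1.40 to 0.07) with overlapping ranges, and it passed the threshold of edgeR with no filter on low counts (adjusted p = 0.0368). Alpl, the alkaline phosphatase of mineralization, stood at 0.32 and Mef2c, a factor of hypertrophy, at -0.24, with the only unadjusted p-values under 0.05 in that list of 22, whose median was -0.04. Among matrix proteases and inhibitors the median was -0.02. The aggrecanase Adamts5 stood at 0.01 (-0.17 to 0.19), and Mmp12 at -0.37 was the only one of 30 under p 0.05. Glycosaminoglycan synthesis genes had a median of -0.03 with 0 of 29 under p 0.05. Among 38 BMP, TGF beta and Wnt genes the median was -0.03. Wnt9a, a ligand of the joint interzone, had 11.1 to 12.8 CPM at 5 MPa and 7.67 to 9.82 CPM at 50 MPa (-0.43), and Nog, the BMP antagonist noggin, 7.04 to 8.29 CPM and 4.61 to 6.52 CPM (-0.44). Both sets of ranges were apart, and neither gene passed the adjusted threshold. FGF and IGF signalling genes had a median of -0.11, with 20 of 23 below 0 and 0 under p 0.05, and the median was -0.02 without 50 MPa replicate 2 and -0.05 without 5 MPa replicate 2.

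Glycolysis and hypoxia response genes leaned lower at 50 MPa more than the other lists of metabolism. Of 32 members 29 stood below 0, with a median of -0.26, and 6 had an unadjusted p under 0.05. Among these, the mitophagy receptors Bnip3 and Bnip3l stood at -0.33 and -0.32 and the glycolytic enzymes Pgk1, Aldoa, Eno1 and Ldha at -0.30, -0.26, -0.23 and -0.20. Pgk1, phosphoglycerate kinase, had 323, 402, 313 and 322 CPM at 5 MPa and 277, 232 and 324 CPM at 50 MPa, so that the groups overlapped. Hif1a, the oxygen-regulated factor itself, stood at 0.01 (-0.16 to 0.19). The lean rested on few libraries. In 29 of the 32 genes 5 MPa replicate 2 was the highest of the 7 libraries, and in 26 of them the lowest was 50 MPa replicate 2. Ndrg1, a hypoxia-induced gene, had 233 CPM in the former against 81.0 to 106 CPM in the other 5 MPa libraries and 73.0 to 102 CPM at 50 MPa. Without 5 MPa replicate 2 the list's median was -0.05, and without 50 MPa replicate 2 it was -0.14. The 3 controls of the second run spanned 66.5 to 165 CPM of Ndrg1.

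**Figure D4:**
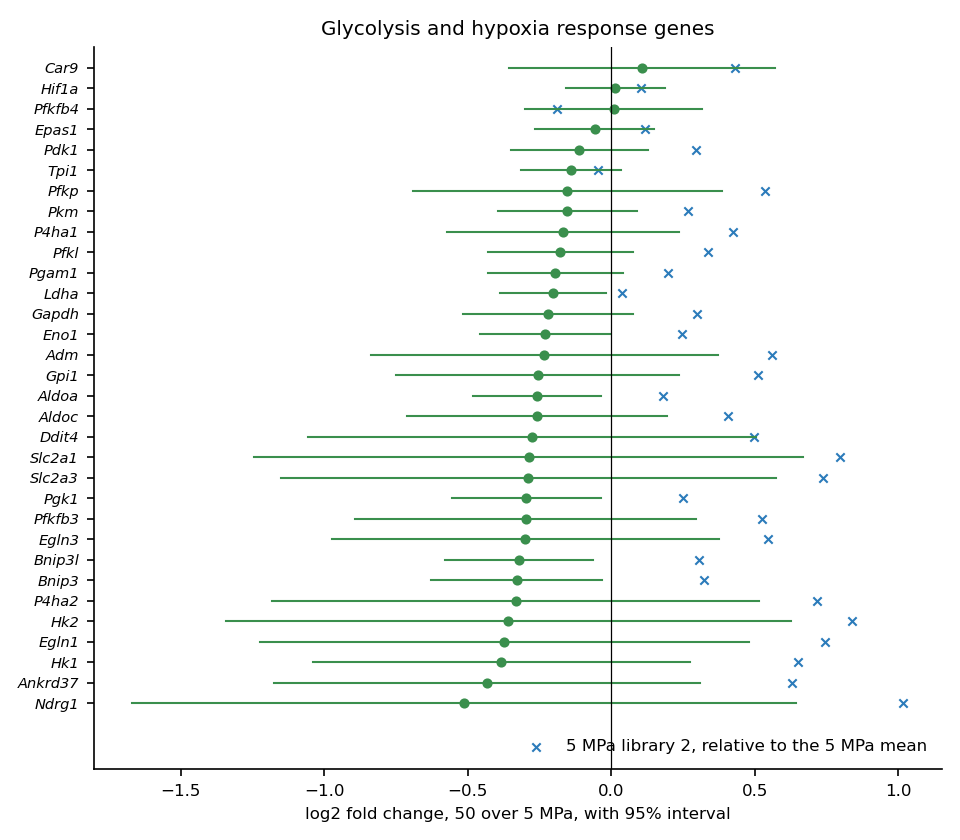
Log2 fold changes of 50 over 5 MPa with 95% intervals for the 32 glycolysis and hypoxia response genes (green), and the position of 5 MPa replicate 2 relative to the mean of its group on the log2(CPM + 0.5) scale (crosses). Nearly all points lie below 0, most intervals cross 0, and the crosses lie above 0 for almost every gene.

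Cytosolic ribosomal protein genes had a narrow shift, with 77 of 79 members below 0 and a median of -0.13. With library sizes alone the median of this list was -0.04 and that of all genes 0.07, and with the unstranded 50 MPa library added the list stood at 0.01. It was -0.20 without 50 MPa replicate 3 and -0.08 without 50 MPa replicate 1. Mitochondrially encoded respiratory subunits had a median of 0.01 and the 72 nuclear subunits -0.02. Cholesterol and cell cycle lists had medians of 0.02 and 0.02, and in the latter Mcm2, a helicase subunit of DNA replication, stood at 0.28 with an unadjusted p of 0.0376. The 19 circadian clock genes had a median of -0.04. There Bhlhe41 and Arntl, the activator BMAL1, were under p 0.05 at -0.29 and -0.26, while Per1 and Per2 stood at -0.04 and 0.05.

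RNA levels of markers of other cell types varied between the pools. Skeletal muscle markers stood below 0 in 22 of 22 members with a median of -0.43, and 0 had an unadjusted p under 0.05. Their summed level was 1942, 3186, 1964 and 2549 CPM at 5 MPa and 1372, 1176 and 2676 CPM at 50 MPa, so that 50 MPa replicate 3 lay among the 5 MPa libraries. The median moved to -0.92 without that library and to -0.16 without 50 MPa replicate 2. Ttn, titin, had 1226 to 2002 CPM at 5 MPa and 759 to 1602 CPM at 50 MPa. All 13 macrophage markers stood below 0 with a median of -0.32, 0 under p 0.05, and their summed levels overlapped (153 to 227 CPM against 134 to 165 CPM). Without 50 MPa replicate 2 their median was -0.18. All 6 mast cell markers did so as well, with a median of -0.52, or -0.31 without 5 MPa replicate 3. The chymase Cma1 at -0.67 was the only one of them with an unadjusted p under 0.05, and it passed the threshold of edgeR with no filter on low counts (adjusted p = 0.0228). All 7 osteoclast markers stood below 0, with a median of -0.27, which ran from -0.46 to -0.23 as each library was left out. Oscar and Acp5 had an unadjusted p under 0.05. Ctsk, cathepsin K, the most abundant of the 7, stood at -0.10 (-0.32 to 0.12) with overlapping libraries. Oscar, a receptor of osteoclasts, had 1.11, 1.04, 1.07 and 0.609 CPM at 5 MPa and 0.598, 0.288 and 0.233 CPM at 50 MPa, without overlap, a log2 fold change of -1.37 (-2.39 to -0.36). Acp5, tartrate-resistant acid phosphatase, had 4.60 to 7.86 CPM at 5 MPa and 4.44 to 4.70 CPM at 50 MPa. Osteoblast and bone markers had a median of 0.08, or -0.05 without 5 MPa replicate 2, with Spp1, osteopontin, at -0.36, and endothelial markers -0.07. Most neutrophil, erythroid and epidermis markers were too low to be tested, at 8 of 9, 8 of 12 and 8 of 11 members. The part of these cell types in the values above was not tested.

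**Figure D5:**
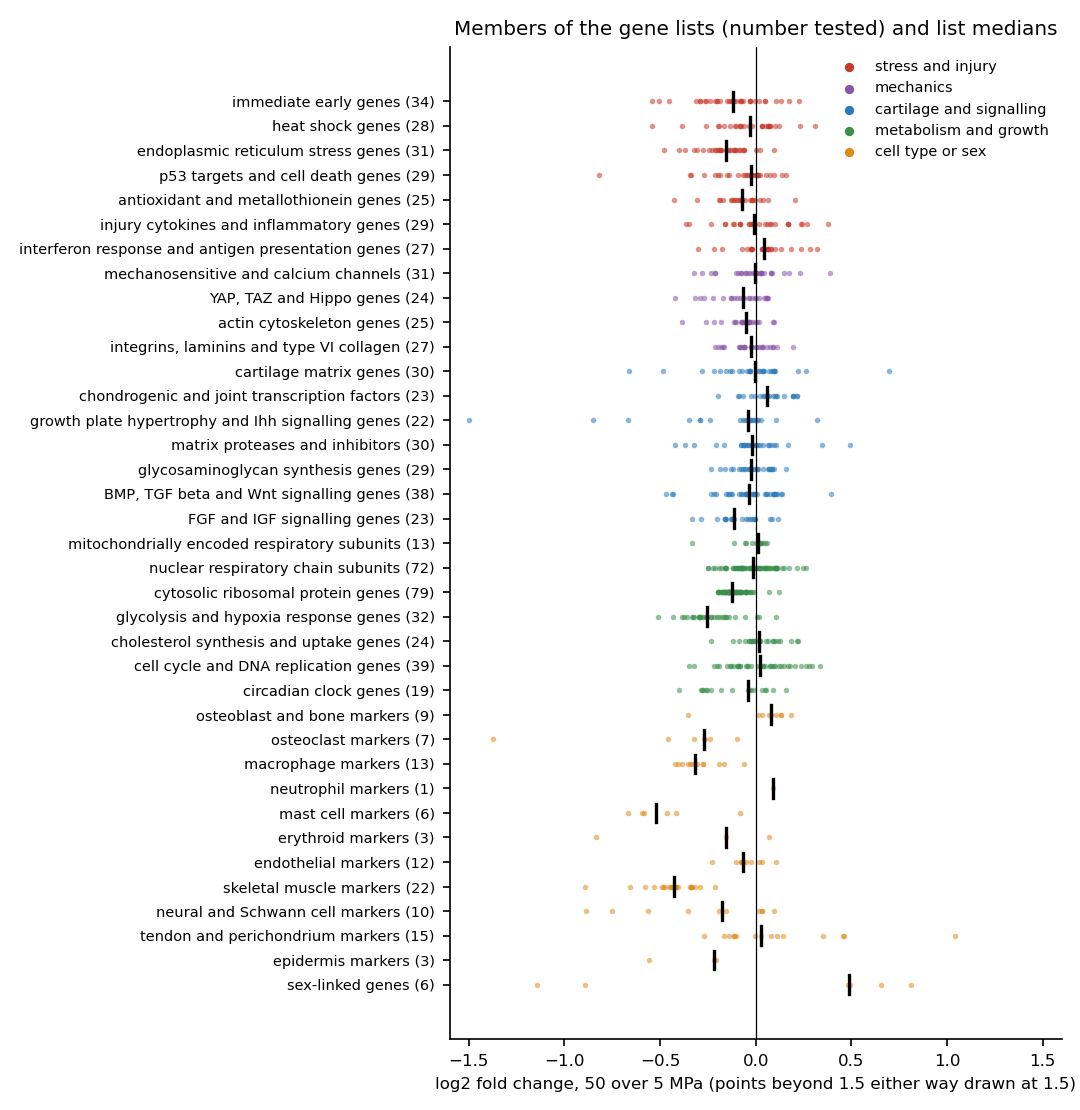
Log2 fold changes of 50 over 5 MPa for the tested members of 37 gene lists (points, coloured by class) with each list's median (black bar). Most medians lie within 0.1 of 0, and the glycolysis, muscle, macrophage, mast cell and osteoclast lists lie lower, each with members whose libraries overlapped.

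Beside the comparison of the pressures stand their comparisons with the 3 controls of the second run, which both share. In a fit of these 10 libraries over 19807 genes, 13 genes differed between 5 MPa and control (0.0656%) and 6 between 50 MPa and control (0.0303%), while 0 differed between 50 and 5 MPa. At an unadjusted p under 0.05 the numbers were 2280 (11.5%), 2221 (11.2%) and 470 (2.37%). The controls also differed in composition. The most abundant gene, without a symbol, took 21.9% to 26.6% of their counts and 8.62% to 16.6% in the pressurized libraries. Protein-coding genes took 50.7% to 54.6% in these controls and 56.3% to 72.3% in the pressurized libraries. The part of composition in the numbers was not tested. Median distances to a control were 78.5 from a 5 MPa library and 80.5 from a 50 MPa library, and 76.6 among the controls themselves. Thbs4 stood at -0.14 at 5 MPa and 0.91 at 50 MPa against control, with adjusted p-values of 0.935 and 0.475. Zfp990 stood at 2.07 and -0.37, with adjusted p-values of 0.166 and 0.857. The study, by DESeq2 with terms for run and library type, listed Zfp990 as higher at 5 MPa than in control metatarsals. The first control, left out of the fit here, held 3.05 CPM of Zfp990. Zfp987 stood at -3.56 and 0.94, with adjusted p-values of 0.156 and 0.569.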

How the data were processed

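Total RNA of metatarsal pools, partly degraded according to the study's methods, was depleted of ribosomal RNA and sequenced. The authors trimmed reads with Trim Galore 0.6.5, ran kallisto for transcript abundance, collapsed transcripts to genes in tximport, and deposited estimated counts of 52178 genes without normalization. Of these values 27.0% were not whole, and they were rounded. kallisto divides reads that fit several genes among them by estimation, so near-identical genes are uncertain. The annotation release behind the table differs from the GENCODE M21 set (GRCm38) used here for names and sequence words, so no coordinates are given. Symbols were found for 48845 genes and not for 3333.

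A low-count filter (filterByExpr, 2 groups) and TMM scaling preceded testing with edgeR 4.0.16 (robust quasi-likelihood, two-sided, Benjamini-Hochberg adjustment, threshold 0.05) in R 4.3.3 on the 7 libraries. Printed CPM were scaled over the 12 metatarsal libraries, and 95% intervals were formed from the log2 fold change and its standard error. These intervals rest on total counts between 11037787 and 18144087 in each of the 7 libraries. Of the libraries printed beside them, the first control had 4185557 counts and the unstranded 50 MPa library 10887599. Sequencing runs are not in the labels and were taken from a colour strip beside the study's clustering plot. Shares of counts were compared by exact permutation (35 divisions).

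Named genes were the 10 in each direction with the smallest unadjusted p among genes of at least 1 CPM whose groups did not overlap. Predicted genes and pseudogenes were left out. In each list the rule took the 2 smallest p-values and the most abundant member, but not all of these are given in the text. Further list members were named by choice and not by rule, with their values. Zfp987, below 1 CPM, was named after its values were seen, as were Rny1, Rny3 and Gm29216. Members and lists were chosen with earlier results of these data known. Alternatives were DESeq2 1.42.0, limma-voom (limma 3.58.1), other filters, scalings, libraries and batch terms, the replicate number as a block and leaving out each library. Chosen after seeing the data was 1 more alternative, genes with a symbol and no small RNA genes. Simulated counts with known changes served to test the edgeR step, and the share of false calls among them exceeded the nominal rate. Libraries shared equal counts in at most 2.40% of genes, so none was a copy of another.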

Additional observations from a re-analysis of the deposited data

Results flagged for a closer look

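In 153 quantities looked at for a 5 MPa library far from the other 3, 10 had a gap above Dixon's 95% critical value for 4 samples. Chance flags about 1 in 20, but Rny1, Rny3 and some list members were included with their values known, so the number of flags is not read against chance. For Col10a1, replicate 1 held 40.0 CPM against at most 4.60 CPM in the others. The same library held 838 CPM of Rny3 and 280 CPM of Rny1, the small Y RNAs that bind the Ro protein, against at most 97.0 and 34.7 CPM. Replicate 2 held 233 CPM of Ndrg1, 122 CPM of Hk2 and 402 CPM of Pgk1 against at most 106, 59.7 and 323 CPM, and it was lowest for the cation channel Trpm5 (54.7 CPM against at least 64.6 CPM) and the complex I subunit Ndufa2 (15.3 CPM against at least 19.6 CPM). Replicate 3 held 1336 CPM of Actb, beta actin, against at most 1068 CPM. Replicate 4 held 0.609 CPM of Oscar, an osteoclast receptor, against at least 1.04 CPM.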

How the results depend on the processing

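The count of genes past the threshold was 0 by edgeR as reported. It was 19 with no filter on low counts (7 higher and 12 lower at 50 MPa), 7 with library sizes alone (5 and 2), 1 with DESeq2, 1 with limma-voom and 2 at an adjusted p of at most 0.10. Leaving out each library in turn gave 0 to 2, with Zfp987 and Gm29216 past the threshold without 5 MPa replicate 1 and Thbs4 without 50 MPa replicate 2. With the replicate number as a block it was 5, Gm29216 and 4 genes without a symbol that share 1 set of counts, all lower at 50 MPa. The cause of these differences was not tested. Residual correlations of libraries with equal numbers were 0.29, -0.07 and -0.13, and those with unequal numbers ran from -0.21 to 0.27. With so few pairs, whether the numbers pair the libraries cannot be decided. In the other fits, among them those with controls, with the unstranded library and with batch terms, the count of genes past the threshold was 0. Per gene, alternatives were followed for 21 genes, the 20 named for the comparison and Zfp987, and none of these changed sign where it was tested. The 20 were chosen for groups that do not overlap, and those of Zfp987 do not either. Leaving out a library could thus hardly reverse a sign, so the stable signs say little. Of the 21, Thbs4, Zfp987, Zfp990 and Smtnl2 passed the threshold in some alternative, Zfp990 with no filter (0.000465) and library sizes alone (0.00282), and Smtnl2 with no filter (0.029). With 3 against 4 libraries, genes under 10 CPM had wide intervals, and the median standard error was 0.16 over all genes and 0.10 from 10 CPM upwards.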

Other observations

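Most of the abundant genes with large fold changes were genes without a symbol, and the others, except Thbs4, were small RNA genes and predicted genes. Of 66 genes of 10 CPM or more past 2-fold, 65 were lower at 50 MPa. They comprised 48 genes without a symbol, 8 small RNA genes such as Rny1, Rny3, Snord21 and Rnu12, 9 predicted genes such as Gm10800, and Thbs4. Thbs4 was the only one whose libraries did not overlap. Identical counts in all 12 metatarsal libraries were carried by 32 of the genes without a symbol, so many of the 66 are not separate measurements. Without 5 MPa replicate 1 only 3 of the 66 remained past 2-fold. Rny3 had 838, 56.1, 97.0 and 75.6 CPM at 5 MPa and 127, 45.9 and 50.8 CPM at 50 MPa, while the 3 controls of the second run held 265 to 363 CPM.

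Gm29216, a pseudogene that shares 97.2% of its 31-base words with the mitochondrial gene mt-Co1, had 740, 26, 34 and 24 estimated counts at 5 MPa and 0 in all 3 stranded 50 MPa libraries. The controls had 1062, 2762, 1622 and 2470 counts and the unstranded 50 MPa library 2546. Its log2 fold change had an unadjusted p of 0.12 by edgeR. mt-Co1 itself had 61024 to 104988 counts at 5 MPa and 52114 to 75728 at 50 MPa.

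The pools differed in sex-linked transcripts. Xist, expressed from the inactive X chromosome, had 719, 2215, 2221 and 1180 CPM at 5 MPa and 1218, 1338 and 4.89 CPM at 50 MPa. Eif2s3y, of the Y chromosome, had 29.1, 13.2, 7.93 and 28.3 CPM at 5 MPa and 26.7, 26.9 and 50.8 CPM at 50 MPa, so it was highest in the library with the least Xist. With that library, 50 MPa replicate 3, left out, the count of genes past the threshold stayed at 0.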
